A study of Drosophila melanogaster with 32 samples.

Results

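The comparison described here asks whether fly heads answered training differently in 2 pairs of strains. For each gene, the mean 5 h change of hsp70- and w+hsp70- was set against the mean 5 h change of hsp70-1c and hsp70-4c, where a 5 h change is the level 5 h after training over the level in naive flies. Differences are given on the log2 scale as the hsp70- and w+hsp70- change minus the hsp70-1c and hsp70-4c change, so a negative value means a lower change in hsp70- and w+hsp70-. The comparison drew on 26 of the 32 libraries, those of naive flies and of flies at 5 h, and left out the 6 libraries at 24 h. All 17559 FlyBase genes in the files were read, and 10729 of them had enough reads to be tested.

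The samples were adult male heads of Drosophila melanogaster, with about 100 flies in each biological replicate. At 5 h after training there were 3 libraries each of hsp70-, w+hsp70-, hsp70-1c and hsp70-4c, and among naive flies there were 3 each of hsp70- and w+hsp70- and 4 each of hsp70-1c and hsp70-4c. The labels give no more of a genotype than its strain name, do not describe the training, and give the age only as adult. Whole heads mix brain, eye, fat body and muscle, so fewer cells of a type and less RNA per cell cannot be told apart. Reads assigned to genes ran from 4542145 to 10344890 a library, with a median of 7338132, and 2 of the 3 naive hsp70- libraries were the shallowest of the 26, at 4542145 and 4648247. Marker genes of photoreceptors (ninaE), glia (repo), neurons (nSyb) and muscle (Mhc) had reads in every library, while the neuronal gene elav was at 0 to 1.27 counts per 1000000 assigned reads (CPM) beside 394 to 617 CPM for nSyb. Nothing in the labels says which strains were trained or collected together.

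Hsp70 is the heat-inducible chaperone that refolds damaged proteins, and flies carry several nearly identical copies of its gene. Memory in flies depends on cyclic AMP made in mushroom body neurons, on neuropeptides and their breakdown, and, for lasting memory, on new transcription and protein synthesis in the hours after training. The pairing of strains by name does not separate libraries with Hsp70 reads from libraries without them. Hsp70Bc had 29 to 36 reads in hsp70-4c at 5 h and 34 to 54 in naive hsp70-4c, had 3 reads in 1 naive hsp70-1c library, and had 0 in every other library of the comparison. Hsp70Aa had at most 3 reads in any of the 26 libraries and the other 4 copies had 0, so hsp70-1c resembled hsp70- and w+hsp70- more than hsp70-4c in this respect. Reads of near-identical copies can be split or dropped in counting, so the copy they are credited to is uncertain.

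The 5 h response differed between the pairs for 48 genes, 0.447% of the 10729 tested (edgeR quasi-likelihood test, Benjamini-Hochberg adjusted p under 0.05). Of these, 32 (0.298%) had a lower change in hsp70- and w+hsp70- than in hsp70-1c and hsp70-4c, and 16 (0.149%) had a higher one. The lower set held the adenylyl cyclase rut, the neuropeptide gene CNMa, the peptidase gene Nep7, 3 Bomanin immune peptides, 5 ribosomal protein genes and both Odc1 and SpdS of polyamine synthesis. The higher set held the calcium pump SERCA, a pair of neighbouring alpha-mannosidase genes, GstD10, ry and the NADP-linked enzymes Idh and Men-b. Without adjustment 1338 genes had p under 0.05, and the absolute differences of the 48 ran from 0.32 to 5.30 on the log2 scale with a median of 0.63. All 48 are named below, some of them outside the naming rule and after their values were seen.

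In most of the 48 the response that passed the test lay in hsp70-1c and hsp70-4c, as it did among all genes tested with a response that passed. For 31 genes the mean change of hsp70-1c and hsp70-4c passed while that of hsp70- and w+hsp70- did not, for 12 the reverse held, for 4 both passed in opposite directions, and for 1, Nep7, both passed in the same direction. Over all genes tested these counts were 1260, 140, 4 and 221, and for 9104 neither mean passed. Of the 32 genes with a lower difference, 28 rose in the hsp70-1c and hsp70-4c mean (6.67% of all genes tested rose and 7.17% fell there), while 8 fell and 1 rose in the hsp70- and w+hsp70- mean (1.95% fell and 1.45% rose). Of the 16 with a higher difference, 8 fell in the hsp70-1c and hsp70-4c mean and the other 8 rose in the mean of hsp70- and w+hsp70-. The means pointed in opposite directions for 35 of the 48. In each of the 48 both changes of hsp70- and w+hsp70- lay on one side of both changes of hsp70-1c and hsp70-4c, an order that 43.9% of all genes tested showed and from which nothing is read here.

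**Figure D1:**
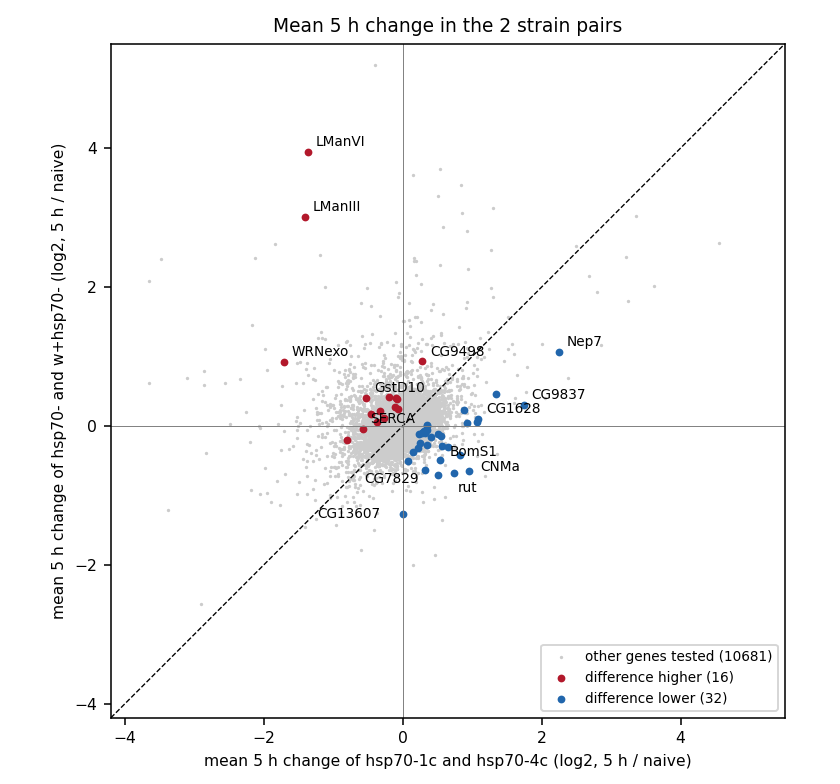
Mean 5 h change of hsp70- and w+hsp70- (vertical axis, log2 of 5 h over naive) against that of hsp70-1c and hsp70-4c (horizontal axis, same scale), 1 point per gene tested. The dashed line marks equal changes; the 16 genes with a higher difference lie above it and the 32 with a lower difference lie below it, most of them to the right of 0.

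The background to these 48 genes is a response that the pairs largely shared where it was clear. Of the 365 genes (3.4% of those tested) that passed in the mean change of hsp70- and w+hsp70-, 334 (91.5%) had the same direction in the hsp70-1c and hsp70-4c mean. Of the 1485 genes (13.8%) that passed in the mean change of hsp70-1c and hsp70-4c, 1189 (80.1%) had the same direction in hsp70- and w+hsp70-, and 221 also passed there in that direction. The means share no library, and 59.9% of all genes tested had the same sign in both. By strain, 60 genes (0.559%) passed at 5 h in hsp70-, 27 higher (0.252%) and 33 lower (0.308%), and 100 (0.932%) in w+hsp70-, 56 higher (0.522%) and 44 lower (0.41%). In hsp70-1c 443 genes (4.13%) passed, 192 higher (1.79%) and 251 lower (2.34%), and in hsp70-4c 796 (7.42%), 401 higher (3.74%) and 395 lower (3.68%). The naive groups hold 3 libraries in hsp70- and w+hsp70- and 4 in hsp70-1c and hsp70-4c, and the median standard error of a change over all genes was 0.158 and 0.156 for hsp70- and w+hsp70- and 0.141 and 0.142 for hsp70-1c and hsp70-4c.

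**Figure D2:**
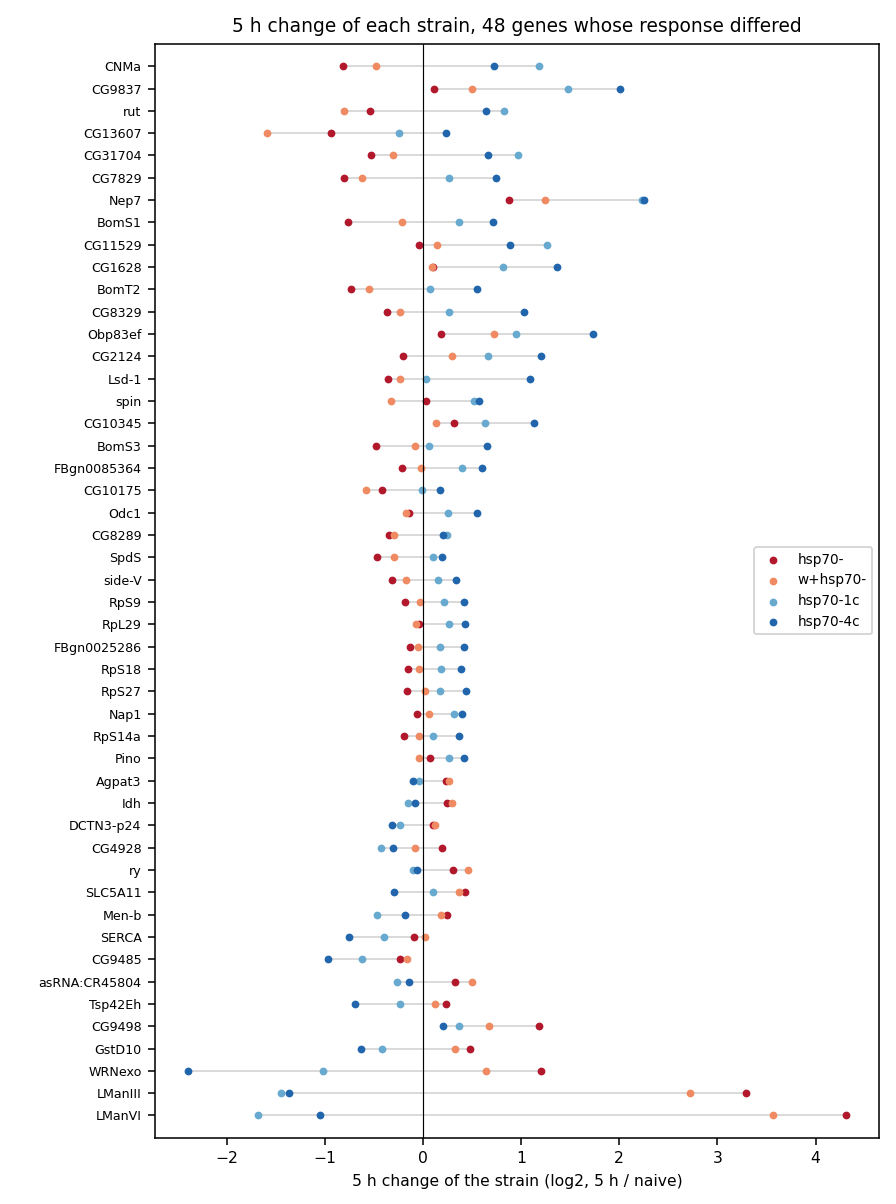
The 5 h change of each strain (horizontal axis, log2 of 5 h over naive) for the 48 genes whose response differed between the pairs, 1 row per gene, ordered from the most negative to the most positive difference. Red and orange points are hsp70- and w+hsp70-, light and dark blue points are hsp70-1c and hsp70-4c, and the grey bar joins the lowest and highest strain.

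The gene rut lies on chromosome X (dm6, 14787478 to 14826073, minus strand) and encodes the calcium- and calmodulin-responsive adenylyl cyclase that flies need for associative memory. Its level in hsp70- was 4.42, 4.41 and 4.71 CPM at 5 h, against 5.26, 8.12 and 6.32 CPM in naive heads. In w+hsp70- it was 2.40, 5.04 and 2.09 CPM at 5 h, against 5.72, 5.09 and 5.55 CPM in naive heads. In both strains every library at 5 h lay below every naive one. In hsp70-1c the order was the other way, with 3.44, 4.09 and 4.04 CPM at 5 h and 2.01, 2.36, 2.36 and 1.89 CPM in naive heads. In hsp70-4c the values were 5.24, 4.21 and 4.47 CPM at 5 h and 3.99, 2.5, 2.06 and 3.42 CPM in naive heads, again without overlap. The difference between the pairs was -1.40 (SE 0.25, adjusted p = 0.0142), made of a fall of the mean of hsp70- and w+hsp70- (-0.67, adjusted p = 0.0381) and a rise of the hsp70-1c and hsp70-4c mean (0.73, adjusted p = 0.00514). No single strain's change of rut passed on its own. The pairs stood further apart in naive heads, where the mean level in hsp70- and w+hsp70- was above that in hsp70-1c and hsp70-4c by 1.24 (log2), than at 5 h, where it was -0.16. The call held when any 1 of the 26 libraries was left out. A long noncoding RNA gene, lncRNA:CR45522, overlaps rut on the opposite strand, and whether the authors counted by strand is not given in the sources used here.

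Among 20 tested genes of cyclic AMP signalling and long-term memory, rut was the only one whose difference passed, lower in hsp70- and w+hsp70-. The median difference of the list was 0.13, beside 0.008 over all genes tested, and it was -0.01 without naive hsp70- replicate 1. That library had the lowest summed level of the list in naive hsp70-, 1585 CPM against 2140 and 2409 CPM, and likewise of 8 neuronal markers, 881 CPM against 1533 and 1722 CPM. The translation regulator gene orb2 and the cell adhesion gene Fas2 came next by p-value and did not pass, with values of 0.27 (95% interval 0.03 to 0.51, adjusted p = 0.334) and 0.37 (95% interval 0.04 to 0.70, adjusted p = 0.339). Of 22 genes of synaptic release and 15 activity-regulated genes, 0 passed by edgeR's quasi-likelihood test, with median differences of 0.10 and -0.02, the first of which was 0.03 without naive hsp70- replicate 1. The activity-regulated genes had positive median 5 h changes in all 4 strains, 0.23 in hsp70-, 0.23 in w+hsp70-, 0.33 in hsp70-1c and 0.28 in hsp70-4c. Of 19 clock genes 0 passed in the difference. In hsp70-1c 4 of them rose and 1 fell (1.79% and 2.34% of all genes tested), and 0 passed in the other strains. The core clock gene tim was at -1.22 with a 95% interval of -2.27 to -0.16 (adjusted p = 0.316). It rose at 5 h in hsp70-1c by 2.17 (adjusted p = 0.0154). Another, Clk, was at 1.02 (95% interval 0.33 to 1.71, adjusted p = 0.186). Its mean change was -0.91 in hsp70-1c and hsp70-4c (adjusted p = 0.0103) and 0.11 in hsp70- and w+hsp70- (adjusted p = 0.882). The part of time of day in the 5 h changes was not tested.

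The lower set held the neuropeptide gene CNMa and, from a separate list, the peptidase gene Nep7. CNMa encodes a neuropeptide of the CNMamide family and had low levels throughout, with a group mean of at most 3.53 CPM, under the 5 CPM level used for naming genes. In hsp70- it was at 2.46, 1.56 and 1.95 CPM at 5 h, against 2.23, 4.58 and 3.79 CPM in naive heads. In w+hsp70- it was at 1.69, 1.68 and 2.09 CPM at 5 h, against 2.86, 3.09 and 1.68 CPM in naive heads, and the groups overlapped in both strains. In hsp70-1c the 3 libraries at 5 h held 2.29, 1.71 and 3.26 CPM, all above the naive 1.18, 1.33, 0.616 and 1.14 CPM, whereas the 2.23, 1.74 and 1.93 CPM of hsp70-4c at 5 h overlapped the naive 0.902, 0.789, 1.83 and 1.18 CPM. The difference was -1.60 (SE 0.34, adjusted p = 0.0337), and the mean change of hsp70-1c and hsp70-4c passed (0.95, adjusted p = 0.00781) while that of hsp70- and w+hsp70- did not (-0.65, adjusted p = 0.176). The CNMa call was lost in 13 of the 26 fits that left out a library. Of 34 tested neuropeptide genes CNMa was the only one to pass, and Crz, which encodes corazonin, came next with -0.55 (95% interval -0.83 to -0.27, adjusted p = 0.065).

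Nep7 encodes a neprilysin-like metallopeptidase, a class of enzyme that cuts small peptides outside cells. It was the gene among the 48 that rose in both pairs. Its level in hsp70- was 23.2, 19.7 and 16.7 CPM at 5 h, against 12.7, 11.0 and 8.85 CPM in naive heads. In w+hsp70- it was 26.7, 25.2 and 25.8 CPM at 5 h, against 7.52, 14.9 and 10.6 CPM. In hsp70-1c it reached 26.4, 41.4 and 37.3 CPM at 5 h, against 9.69, 3.98, 8.32 and 7.38 CPM, and in hsp70-4c 17.0, 26.9 and 29.2 CPM against 4.25, 4.74, 5.83 and 5.53 CPM. Every library at 5 h thus lay above every naive library of its strain, and the changes were 0.87, 1.25, 2.23 and 2.25 in hsp70-, w+hsp70-, hsp70-1c and hsp70-4c. The difference was -1.18 (SE 0.25, adjusted p = 0.0368), but it passed in only 9 of the 26 fits with a library left out and in 2 of the 5 other settings. Among those 5, the DESeq2 Wald test gave Nep7 no adjusted p. Nep6, of the same family, rose in each of the 4 strains, by 0.70, 0.69, 0.63 and 1.25, and its difference between the pairs was -0.25 (95% interval -0.54 to 0.04, adjusted p = 0.478). Of the 12 neprilysin and angiotensin-converting enzyme genes tested, Nep7 alone passed in the difference.

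An odorant-binding protein gene and a sidestep-family gene were lower as well. Obp83ef, an odorant-binding protein gene, differed by -0.89 (SE 0.20, adjusted p = 0.0391), with 5 h changes of 0.18 and 0.72 in hsp70- and w+hsp70- beside 0.95 and 1.73 in hsp70-1c and hsp70-4c. It was the only one of 33 tested odorant-binding protein genes to pass, and Obp83cd overlaps it on the opposite strand. The sidestep-family gene side-V, a cell-surface protein gene, differed by -0.49 (SE 0.11, adjusted p = 0.0444). Obp83ef passed in 9 and side-V in 5 of the 26 fits with a library left out.

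**Figure D3:**
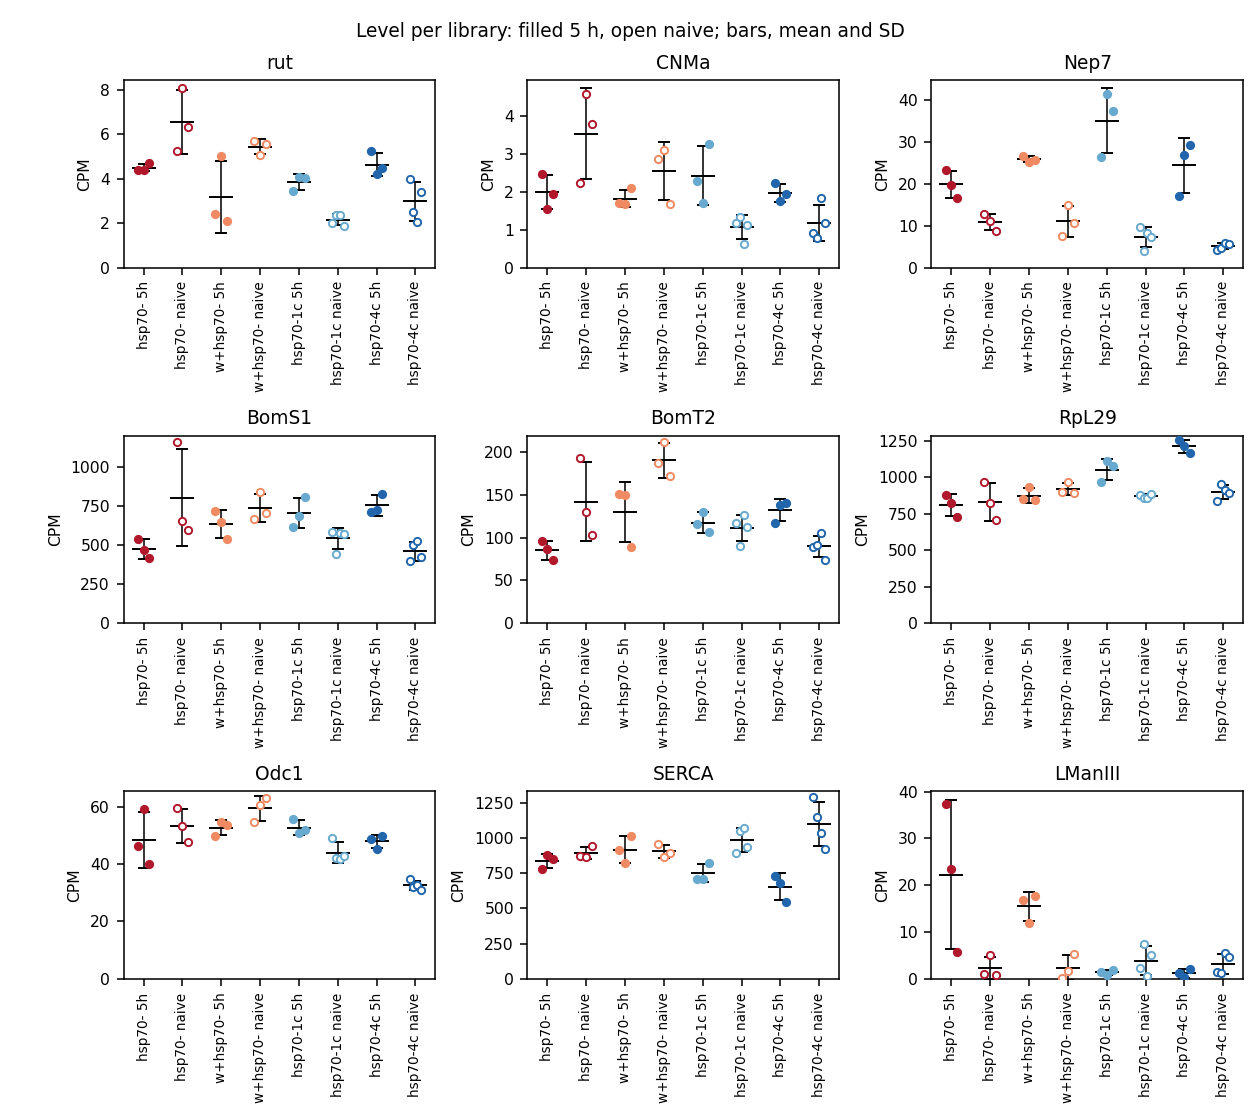
Level in every library (CPM, vertical axis starting at 0) of 9 genes whose 5 h response differed between the pairs, with filled points for 5 h, open points for naive flies, and bars for the mean and SD of each group. For rut the points at 5 h lie below the naive points in hsp70- and w+hsp70- and above them in hsp70-1c and hsp70-4c.

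Bomanins are short secreted peptides that the Toll pathway induces, made mostly by fat body. All 12 tested Bomanin genes had a negative difference, with a median of -0.64, and 3 passed. Over all genes tested 5201 of 10729 had a negative difference. BomS1 was at 539, 468 and 415 CPM in hsp70- at 5 h, against 1162, 652 and 596 CPM in naive hsp70-. In w+hsp70- it was at 716, 650 and 542 CPM at 5 h, against 668, 838 and 708 CPM. In hsp70- every library at 5 h was below every naive one, and in w+hsp70- the groups overlapped. In hsp70-1c BomS1 was at 616, 688 and 807 CPM at 5 h, against 584, 445, 579 and 569 CPM, and in hsp70-4c at 712, 723 and 828 CPM against 401, 499, 524 and 421 CPM. The 5 h groups of both these strains lay wholly above their naive groups. The difference for BomS1 was -1.03 (adjusted p = 0.0154), that for BomT2 -0.96 (adjusted p = 0.0297) and that for BomS3 -0.63 (adjusted p = 0.022). The 3 genes are neighbours on chromosome 2R, with 3516 bases between BomS1 and BomS3 and 260 between BomS3 and BomT2.

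The first naive hsp70- library stood apart in this family. It held the highest BomS1 level of the 26 libraries and the highest summed level of the antimicrobial peptide list, 12409 CPM, against 6977 and 8806 CPM in the other naive hsp70- libraries. Without it the median Bomanin difference was -0.51, and over all single libraries left out it ran from -0.74 to -0.51. BomS1 passed in each of the 26 such fits, and BomS3 in 24 and BomT2 in 20. The strain medians of the 12 genes were -0.48 in hsp70-, -0.20 in w+hsp70-, 0.07 in hsp70-1c and 0.45 in hsp70-4c. Of the wider list of 30 antimicrobial peptide genes, which contains the Bomanins, no other gene passed in the difference. The list's median difference was -0.66, and 1 of its genes rose in hsp70-1c and 13 rose in hsp70-4c, while 1 fell in hsp70-. Over all genes tested 1.79% rose in hsp70-1c, 3.74% rose in hsp70-4c and 0.308% fell in hsp70-. The bacterially induced peptide genes had wide intervals, as for DptA, which rose in hsp70-4c by 5.79 (adjusted p = 0.0102) and whose difference of -0.34 had an interval of -5.46 to 4.78. Of 26 tested genes of peptidoglycan recognition and immune signalling 0 passed, with a median of 0.04.

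Genes of protein synthesis had small and one-sided differences. Of 78 cytoplasmic ribosomal protein genes tested, 76 had a negative difference and the median was -0.21. Over all genes tested 5201 of 10729 were negative and the median was 0.008. Of the 78 genes 5 passed, namely RpS9 (-0.42), RpL29 (-0.41), RpS18 (-0.38), RpS27 (-0.38) and RpS14a (-0.35). The strain medians of the 78 genes were -0.10 in hsp70-, -0.03 in w+hsp70-, 0.06 in hsp70-1c and 0.25 in hsp70-4c. Of the 78, 33 rose in hsp70-4c while 0 passed in any of the other 3 strains. Over all genes tested 3.74% rose in hsp70-4c, and 0.559%, 0.932% and 4.13% passed in hsp70-, w+hsp70- and hsp70-1c. RpL29 illustrates the levels. It was at 878, 823 and 730.0 CPM in hsp70- at 5 h, against 967, 822 and 704 CPM in naive hsp70-, and at 848, 932 and 844 CPM in w+hsp70- at 5 h, against 899.6, 965 and 894 CPM. In hsp70-1c it was at 968, 1108 and 1079 CPM at 5 h, against 881, 859, 861 and 887 CPM. In hsp70-4c it was at 1254, 1214 and 1166 CPM at 5 h, against 834 to 954 CPM. The groups overlapped in hsp70- and w+hsp70- and did not overlap in hsp70-1c and hsp70-4c. The number of ribosomal protein genes that passed ran from 0 to 17 when single libraries were left out, with medians of -0.24 to -0.17. RpS14a has a nearly identical neighbour copy, RpS14b, so its value is uncertain. Mitochondrial ribosomal protein genes stayed near the background, with 0 of 70 passing and a median of -0.04.

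Odc1 encodes ornithine decarboxylase, which makes putrescine, and SpdS encodes spermidine synthase, which extends putrescine to spermidine. Odc1 was at 46.3, 59.1 and 39.9 CPM in hsp70- at 5 h, against 59.5, 53.3 and 47.6 CPM in naive hsp70-, and at 49.7, 54.8 and 53.5 CPM in w+hsp70- at 5 h, against 54.6, 60.7 and 62.9 CPM. For hsp70-1c the level was 55.8, 50.7 and 51.8 CPM at 5 h, against 49.3, 42.0, 41.7 and 43.0 CPM, and for hsp70-4c 48.6, 45.3 and 49.8 CPM against 34.6, 32.1, 32.8 and 30.9 CPM. The levels of the 4 strains were close to each other at 5 h and further apart in naive heads, where the pair ratio was 0.57 (log2) against 0.01 at 5 h. The difference was -0.56 (SE 0.11, adjusted p = 0.0167) and passed in all 26 fits with a library left out. SpdS differed by -0.53 (SE 0.12, adjusted p = 0.0444), and in it the mean fall of hsp70- and w+hsp70- passed (-0.38, adjusted p = 0.0131) while the mean change of hsp70-1c and hsp70-4c did not (0.15, adjusted p = 0.24). It passed in 7 of the 26 fits. SpdS overlaps Scm and an antisense RNA gene on the opposite strand. The nucleosome assembly gene Nap1 differed by -0.35 (SE 0.07, adjusted p = 0.0297).

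The lysosomal transporter gene spin and the lipid droplet gene Lsd-1 were lower too. spin was at 114, 86.2 and 103 CPM in hsp70- at 5 h, against 101, 106 and 90.6 CPM, and at 83.0, 95 and 66.0 CPM in w+hsp70- at 5 h, against 106, 90.6 and 109 CPM. Libraries of hsp70-1c held 120.2, 107 and 122 CPM at 5 h, against 80.9, 76.8, 85.1 and 81.2 CPM, and those of hsp70-4c held 112, 85.3 and 124 CPM against 77.5, 77.4, 71.1 and 62.2 CPM. It rose without overlap in hsp70-1c (0.52, adjusted p = 0.0118) and hsp70-4c (0.57, adjusted p = 0.0047), its difference was -0.70 (SE 0.13, adjusted p = 0.0154), and no single library decided that call. Lsd-1, which encodes a perilipin of lipid droplets, differed by -0.86 (SE 0.19, adjusted p = 0.0478). Its 5 h change was 1.09 in hsp70-4c (adjusted p = 0.00085) but 0.04 in hsp70-1c, with -0.36 in hsp70- and -0.23 in w+hsp70-. In the test within the pair, the change of hsp70-4c minus that of hsp70-1c was 1.05 (SE 0.26) and did not pass (adjusted p = 0.174). The third hsp70-4c library at 5 h held 362 CPM of Lsd-1, against 201 and 192 CPM in the other 2, and the difference passed in 5 of the 26 fits. Of 24 tested head fat body genes Lsd-1 alone passed, and the desaturase gene Desat1 differed by -0.62 (adjusted p = 0.0713).

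The strongest calls by p-value belonged to genes with CG names. CG1628 and CG13607 shared the smallest adjusted p of the comparison, 0.00193, followed by CG9837 (0.00203) and CG7829 (0.00222), and these 4 passed whichever library was left out. CG1628 was at 43.6, 46.5 and 30.8 CPM in hsp70- at 5 h, against 41.7, 37.5 and 33.9 CPM, and at 34.1, 41.7 and 35.0 CPM in w+hsp70- at 5 h, against 32.8, 37.2 and 34.0 CPM. It rose in hsp70-1c, with 44.7, 46.8 and 53.4 CPM at 5 h against 30.8, 26.1, 24.0 and 28.8 CPM, and in hsp70-4c, with 80.7, 62.9 and 54.1 CPM at 5 h against 28.9, 27.6, 22.8 and 23.4 CPM. The groups overlapped in both strains of one pair and were separate in both strains of the other, for a difference of -0.99 (SE 0.14). CG2124 overlaps CG1628 by 1024 bases on the opposite strand of chromosome X and had a like pattern, with a difference of -0.88 (SE 0.15, adjusted p = 0.0105), and reads of the overlap cannot be told apart here.

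The level of CG9837 in hsp70- was 38.3, 39.9 and 25.2 CPM at 5 h, against 33.0, 30.2 and 32.9 CPM, and in w+hsp70- 33.9, 48.7 and 35.8 CPM at 5 h, against 28.6, 24.7 and 30.3 CPM. In hsp70-1c it was 53.8, 61.2 and 62.8 CPM at 5 h, against 22.4, 18.7, 19.5 and 24.8 CPM, and in hsp70-4c 74.1, 35.9 and 59.7 CPM against 17.3, 14.1, 14.5 and 10.5 CPM. The changes of 1.48 in hsp70-1c and 2.0 in hsp70-4c both passed, those of 0.11 in hsp70- and 0.50 in w+hsp70- did not, and the difference was -1.44 (SE 0.21).

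CG13607 behaved the other way, since its change lay in hsp70- and w+hsp70-. It was at 16.3, 14.6 and 17.7 CPM in hsp70- at 5 h, against 33.6, 38.3 and 21.3 CPM, and at 14.5, 12.8 and 9.39 CPM in w+hsp70- at 5 h, against 32.5, 41.0 and 37.2 CPM. The hsp70-1c libraries held 25.4, 19.2 and 17.7 CPM at 5 h, against 23.5, 22.1, 23.8 and 29.3 CPM, and the hsp70-4c libraries 75.6, 50.1 and 62.1 CPM against 56.0, 58.4, 47.9 and 50 CPM. It fell without overlap in both strains of the one pair and overlapped in both strains of the other, and its difference was -1.26. CG7829 fell in the mean of hsp70- and w+hsp70- (-0.71, adjusted p = 0.00282) and rose in the hsp70-1c and hsp70-4c mean (0.51, adjusted p = 0.00634), for a difference of -1.22 (SE 0.18). At 5 h it was at 46.2 to 81.3 CPM in hsp70- and w+hsp70-, 83.2 to 113 CPM in hsp70-1c and 266 to 307 CPM in hsp70-4c.

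Of the other genes with a lower difference, CG11529 and CG8329 passed in all 26 fits with a library left out. CG11529 differed by -1.02, with 9.31 to 13.5 CPM at 5 h in hsp70- and w+hsp70-, against 16.2 to 25.8 CPM at 5 h in hsp70-1c and hsp70-4c. CG8329 differed by -0.95, with 5 h changes of -0.36 in hsp70-, -0.24 in w+hsp70-, 0.27 in hsp70-1c and 1.03 in hsp70-4c. CG8289 (-0.54) fell in the mean of hsp70- and w+hsp70- (-0.32, adjusted p = 0.0175) and rose in the hsp70-1c and hsp70-4c mean (0.22, adjusted p = 0.0325). CG31704 (-1.23), CG10345 (-0.65), CG10175 (-0.58), Pino (-0.33) and a pair of genes given only by identifier, FBgn0085364 (-0.62) and FBgn0025286 (-0.39), completed the set. Genes given only by identifier could not enter a gene list, whatever family they belong to. The overlaps of annotated genes on the opposite strand include CG13607 with Root, CG8329 with fry, CG31704 with Pde1c and CG10345 with CG14892.

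Muscle genes had the opposite pattern to ribosomal protein genes. Of 27 tested genes of muscle structure and calcium handling, 26 had a positive difference, the median was 0.29, and SERCA passed. Over all genes tested 5528 of 10729 had a positive difference. The strain medians of the muscle list were -0.09 in hsp70-, -0.12 in w+hsp70-, -0.29 in hsp70-1c and -0.51 in hsp70-4c. Of the 27 genes, 6 fell in hsp70-1c and 13 fell in hsp70-4c, with 0 passing in the other strains. Over all genes tested 2.34% fell in hsp70-1c and 3.68% in hsp70-4c, beside 0.308% in hsp70- and 0.41% in w+hsp70-. SERCA, the pump that returns calcium to the endoplasmic reticulum, was at 782, 882 and 851 CPM in hsp70- at 5 h, against 873, 869 and 943 CPM, and at 915, 824 and 1018 CPM in w+hsp70- at 5 h, against 955, 869 and 893 CPM. Those of hsp70-1c were at 713, 712 and 824 CPM at 5 h, against 895, 1048, 1074 and 938 CPM, and hsp70-4c libraries were at 731, 684 and 549 CPM against 1294, 1151, 1036 and 926 CPM. The groups were separate in hsp70-1c and hsp70-4c and overlapped in hsp70- and w+hsp70-. The difference of SERCA was 0.54 (SE 0.11, adjusted p = 0.0273), it passed in 23 of the 26 fits, and the median of the muscle list stayed between 0.25 and 0.34 in them. Act57B and Obsc, which encode an actin and the giant sarcomeric protein obscurin, came next with 0.41 (adjusted p = 0.0833) and 0.40 (adjusted p = 0.065). SERCA is also expressed outside muscle, and CG2812 overlaps it on the opposite strand.

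**Figure D4:**
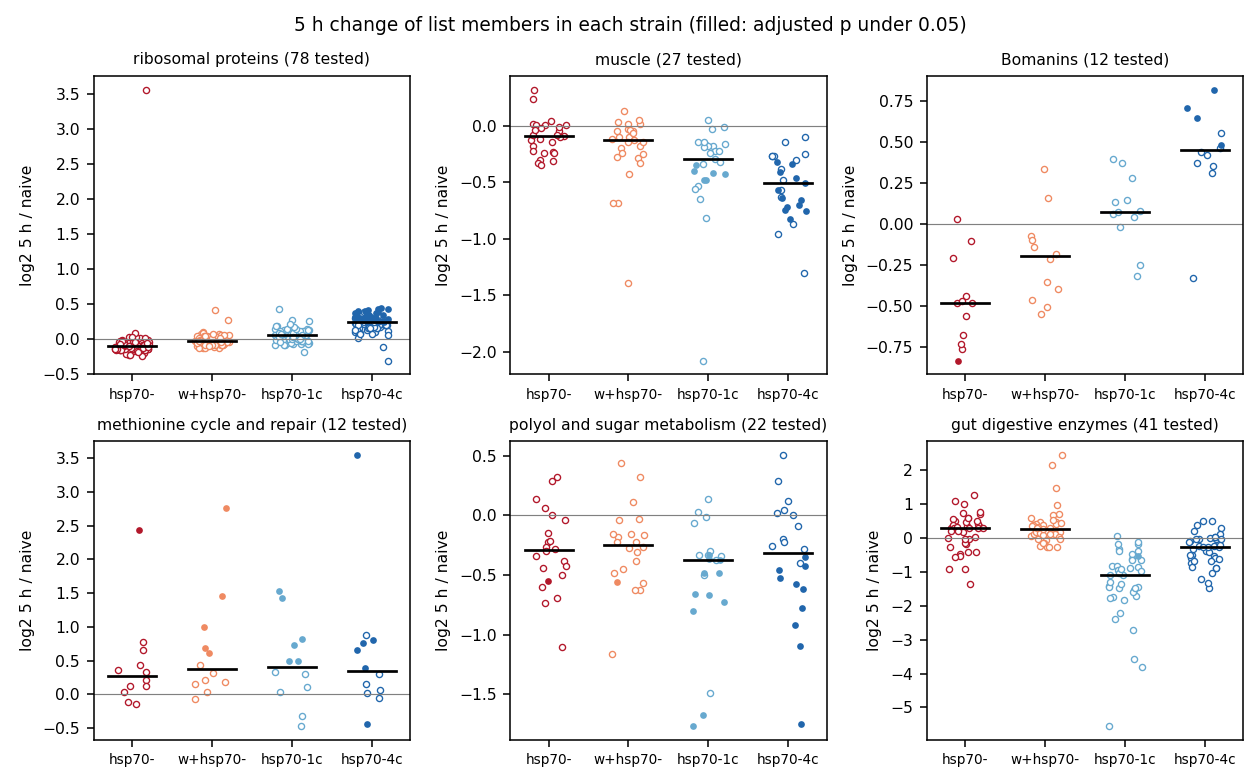
The 5 h change (log2 of 5 h over naive) of every tested member of 6 gene lists in each strain, with a black line at the median and filled points where the strain's change passed the test. Ribosomal protein and Bomanin medians are highest in hsp70-4c and muscle medians are lowest there, while the methionine cycle and polyol lists have medians of like size in all 4 strains.

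Among the 48 genes the largest differences in size were those of LManIII and LManVI, lysosomal alpha-mannosidase genes that lie 8950 bases apart on chromosome 2L. LManIII was at 37.4, 23.5 and 5.68 CPM in hsp70- at 5 h, against 1.01, 4.99 and 0.843 CPM, and at 16.8, 11.9 and 17.7 CPM in w+hsp70- at 5 h, against 0.15, 1.63 and 5.38 CPM. In hsp70-1c it was at 1.38, 0.856 and 1.83 CPM at 5 h, against 2.24, 7.51, 0.616 and 5.11 CPM, and in hsp70-4c at 1.18, 0.291 and 2.18 CPM against 1.55, 1.32, 5.49 and 4.60 CPM. All 6 libraries at 5 h of hsp70- and w+hsp70- were above all naive libraries of their strains, and the groups overlapped in hsp70-1c and hsp70-4c. The difference was 4.41 (SE 0.93, 95% interval 2.46 to 6.37, adjusted p = 0.0444) for LManIII and 5.30 (SE 1.15, 95% interval 2.88 to 7.72, adjusted p = 0.0492) for LManVI. LManVI ranged from 4.06 to 80.8 CPM within hsp70- at 5 h. The calls passed in 7 and 4 of the 26 fits with a library left out.

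The levels of gut digestive enzymes are given beside these genes because the sums differed widely between libraries. Of 41 tested gut enzyme genes 0 passed in the difference by edgeR's quasi-likelihood test, while 38 had a positive difference and the median was 1.04. This list holds the alpha-mannosidase genes LManI and LManII but not LManIII or LManVI. Over all genes tested 5528 of 10729 had a positive difference and the median was 0.008. The strain medians of the gut list were 0.29 in hsp70-, 0.27 in w+hsp70-, -1.09 in hsp70-1c and -0.26 in hsp70-4c. Their summed level ran from 12280 to 37130 CPM in hsp70- at 5 h and 17252 to 20254 CPM in naive hsp70-, and from 22683 to 24484 CPM in w+hsp70- at 5 h and 10692 to 28210 CPM in naive w+hsp70-. It ran from 8070 to 11213 CPM in hsp70-1c at 5 h and 8623 to 37418 CPM in naive hsp70-1c, and from 12441 to 21921 CPM in hsp70-4c at 5 h and 12498 to 24905 CPM in naive hsp70-4c. The second naive hsp70-1c library, which held the highest of these sums, also held the highest LManIII and LManVI levels of its group, 7.51 and 20.6 CPM, and without it the median of the gut list was 0.72. The second hsp70- library at 5 h held 37130 CPM of gut enzymes and the first held the highest LManVI level. The third hsp70- library at 5 h had the lowest gut sum of its strain, 12280 CPM. Its LManIII and LManVI levels, 5.68 and 4.06 CPM, were the lowest of hsp70- at 5 h and above all naive hsp70- libraries. The third naive w+hsp70- library had the highest gut sum of its strain, 28210 CPM. Its LManIII and LManVI levels, 5.38 and 3.7 CPM, were the highest of naive w+hsp70- and below all w+hsp70- libraries at 5 h. The part of gut tissue in the LManIII and LManVI results was not tested.

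GstD10, a glutathione S-transferase gene of the delta class, was at 20, 17.4 and 12.2 CPM in hsp70- at 5 h, against 12.3, 11.4 and 12 CPM, and at 17.1, 12.8 and 19.5 CPM in w+hsp70- at 5 h, against 16.2, 11.6 and 11.4 CPM. For hsp70-1c the level was 10.9, 13 and 11.2 CPM at 5 h, against 16.7, 18.1, 14.3 and 13.8 CPM, and for hsp70-4c 7.86, 12.5 and 9.30 CPM against 16.5, 14.1, 17.3 and 13.2 CPM. The fall was without overlap in hsp70-1c and hsp70-4c, and the difference was 0.93 (SE 0.18, adjusted p = 0.022). It was the only one of 32 tested glutathione S-transferase genes to pass and it passed in 24 of the 26 fits. WRNexo, an exonuclease gene of the Werner syndrome family, differed by 2.63 (SE 0.57, adjusted p = 0.0337) at levels under 2 CPM in every library, and hmw overlaps it on the opposite strand.

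Several enzymes of intermediary metabolism were in the higher set with small differences. Idh, the NADP-linked isocitrate dehydrogenase gene, differed by 0.38 (adjusted p = 0.0444) and Men-b, a malic enzyme gene, by 0.54 (adjusted p = 0.0444). For Idh the mean of hsp70- and w+hsp70- rose (0.27, adjusted p = 0.0136) and that of hsp70-1c and hsp70-4c did not pass (-0.12, adjusted p = 0.208), whereas for Men-b the hsp70-1c and hsp70-4c mean fell (-0.32, adjusted p = 0.00966) and the other did not pass (0.22, adjusted p = 0.221). ry encodes xanthine dehydrogenase, which makes urate and acts in eye pigment synthesis. It was at 25.3, 30.3 and 21.1 CPM in hsp70- at 5 h, against 20, 20.8 and 21.3 CPM, and at 31.0, 32.6 and 32 CPM in w+hsp70- at 5 h, against 25, 22.7 and 21.9 CPM. Libraries of hsp70-1c held 62.9 to 68.9 CPM at 5 h, against 63.8 to 77.0 CPM, and those of hsp70-4c held 53.5 to 60.9 CPM at 5 h, against 52.0 to 64.4 CPM. Its level in hsp70- and w+hsp70- was thus under that in hsp70-1c and hsp70-4c in every library at both times, and its difference of response was 0.46 (SE 0.11, adjusted p = 0.0471). Idh, Men-b and ry passed in 3, 7 and 5 of the 26 fits with a library left out.

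CG9498 had the smallest p of the higher set for the mean change of hsp70- and w+hsp70- (0.93, adjusted p = 6.1e-06). It was at 135, 112 and 117 CPM in hsp70- at 5 h, against 61.9, 57.0 and 41.5 CPM, and at 137, 125 and 94.8 CPM in w+hsp70- at 5 h, against 87.1, 64.3 and 71.8 CPM. The hsp70-1c libraries held 117, 107 and 108 CPM at 5 h, against 78.7 to 95.7 CPM, and the hsp70-4c libraries 103, 127 and 104 CPM at 5 h, against 78.1 to 112 CPM. All 4 strains were near each other at 5 h, and the pairs stood apart by -0.53 (log2) in naive heads and 0.12 at 5 h. The difference was 0.65 (adjusted p = 0.044). SLC5A11, a sodium-linked solute transporter gene that acts in hunger-driven feeding choice, differed by 0.50 (adjusted p = 0.0297), and the mean of hsp70- and w+hsp70- rose (0.40, adjusted p = 0.00241) while that of hsp70-1c and hsp70-4c did not pass (-0.09). The remaining genes were Tsp42Eh (0.64), a tetraspanin gene, asRNA:CR45804 (0.62), antisense to the nucleotide synthesis gene Prps, CG9485 (0.60), CG4928 (0.42), the dynactin subunit gene DCTN3-p24 (0.39) and the acyltransferase gene Agpat3 (0.32). asRNA:CR45804 passed in 25 of the 26 fits.

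For 20 of the 48 genes, rut, Nep7, Odc1 and CG9498 among them, the gap between the pairs was smaller at 5 h than in naive heads, and for the other 28, CG13607, CG7829, SERCA and RpL29 among them, it was wider at 5 h. These counts compare ratios of group mean CPM and carry no test.

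Genes of methionine and of sugar metabolism gave no call in the difference. The number of them that passed within a strain was unequal, as it was over all genes tested. The 12 tested genes of the methionine cycle and methionine repair had strain medians of 0.27, 0.38, 0.41 and 0.35 in hsp70-, w+hsp70-, hsp70-1c and hsp70-4c, a median difference of 0.00, and 0 genes that passed in the difference. Of these 12 genes 1, 5, 6 and 5 rose in the 4 strains in that order, and 1 fell in hsp70-4c. Over all genes tested 0.252%, 0.522%, 1.79% and 3.74% rose in that order, and 3.68% fell in hsp70-4c. MsrA, which repairs oxidised methionine, rose by 1.46 in w+hsp70-, by 1.54 in hsp70-1c and by 0.66 in hsp70-4c, was at 0.78 in hsp70- (adjusted p = 0.115), and its difference between the pairs was 0.02 (95% interval -0.41 to 0.45). The 22 tested genes of polyol and sugar metabolism had strain medians of -0.29, -0.25, -0.37 and -0.31 and a median difference of 0.18, with 0 passing in the difference. Of these 22 genes 1 fell in hsp70-, 1 in w+hsp70-, 11 in hsp70-1c and 10 in hsp70-4c. Over all genes tested 0.308%, 0.41%, 2.34% and 3.68% fell in that order of strains. UGP, the UDP-glucose pyrophosphorylase gene, was at 0.32 (95% interval 0.11 to 0.54, adjusted p = 0.178). The stress peptide gene TotX fell in all 4 strains, by 1.43, 1.47, 1.70 and 1.11, with a difference of -0.04 (95% interval -0.48 to 0.39). The Turandot list it belongs to did not move as one, since the median of its 4 tested members was -2.40 in hsp70-, 0.75 in w+hsp70-, -0.91 in hsp70-1c and -1.0 in hsp70-4c and 1 member passed in each strain. Acer, a gene of the angiotensin-converting enzyme family, fell in all 4 by 0.85, 1.18, 1.10 and 0.78, with a difference of -0.08 (95% interval -0.32 to 0.16).

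Several other lists gave no call or 1 call in the difference by the same test. The 22 tested chaperone genes other than inducible Hsp70 had a median of -0.08, and the constitutive Hsc70-4, which rose in hsp70-4c by 0.48 (adjusted p = 0.00243), was at -0.24 (95% interval -0.44 to -0.04, adjusted p = 0.301). The 30 photoreceptor genes had a median of -0.10, with Rh6, a rhodopsin gene that rose in hsp70-1c and hsp70-4c by 0.44 and 0.61, at -0.39 (adjusted p = 0.107). The 69 nuclear genes of the respiratory chain had a median of 0.07 and the 28 UDP-glycosyltransferase genes one of 0.29. Eye pigment genes gave 1 call of 21 (ry), and antisense RNAs gave 1 of 342.

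The same test was run within each pair, where a difference has a larger error. The median absolute difference over all genes was 0.147 between w+hsp70- and hsp70- and 0.16 between hsp70-4c and hsp70-1c, beside 0.145 between the pairs, and the median standard errors were 0.222, 0.2 and 0.149. Between w+hsp70- and hsp70- 0 genes (0%) passed in edgeR's quasi-likelihood test and 0 in the DESeq2 Wald test, with 361 at an unadjusted p under 0.05. Between hsp70-4c and hsp70-1c 2 genes (0.0186%) passed, 1 higher (0.00932%) and 1 lower (0.00932%), with 800 at an unadjusted p under 0.05. The DESeq2 Wald test gave 40 genes, and leaving out single libraries gave 0 to 16. It gave 0, with neither of the 2 genes passing, without hsp70-4c 5 h replicate 2, hsp70-4c naive replicate 1, hsp70-1c 5 h replicates 2 and 3 or hsp70-1c naive replicate 1, and 16, 11 and 5 without hsp70-4c naive replicate 4, hsp70-1c 5 h replicate 1 and hsp70-4c 5 h replicate 1. In 9 further fits it gave 1, those without naive replicates 2 or 3 of hsp70-4c, hsp70-1c or hsp70- and those without any 1 of the 3 w+hsp70- libraries at 5 h. The first was daw, which encodes an activin-type ligand. It was at 27.9, 20.8 and 19.5 CPM in hsp70-4c at 5 h, against 29.2, 24.7, 22.3 and 17.9 CPM in naive hsp70-4c, and at 40.6, 60.1 and 51.5 CPM in hsp70-1c at 5 h, against 19.4, 18.9, 21.9 and 26.5 CPM. The response of hsp70-4c minus that of hsp70-1c was -1.29 (SE 0.22, adjusted p = 0.0305). The other was CG14400 (1.41, SE 0.23, adjusted p = 0.0161), which fell in hsp70-, w+hsp70- and hsp70-1c by 1.02, 1.26 and 1.32 and was at 0.09 in hsp70-4c.

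The number of genes that passed between the pairs moved with single libraries. It was 13 without the second naive w+hsp70- library and 87 without the third naive hsp70- library. It also fell by over 1.5 times without w+hsp70- naive replicate 1 (24), w+hsp70- 5 h replicates 1 (20) and 3 (17), hsp70- 5 h replicate 1 (25), hsp70-1c 5 h replicates 2 (24) and 3 (28), hsp70-1c naive replicate 4 (18), hsp70-4c 5 h replicate 3 (30) and hsp70-4c naive replicates 1 (27) and 3 (25). Of the 48 genes, 11 passed whichever library was left out, namely rut, spin, Odc1, BomS1, CG1628, CG2124, CG7829, CG8329, CG9837, CG11529 and CG13607. A further 17 passed in 10 or fewer of the 26 fits, and all 48 kept their direction in every fit.

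**Figure D5:**
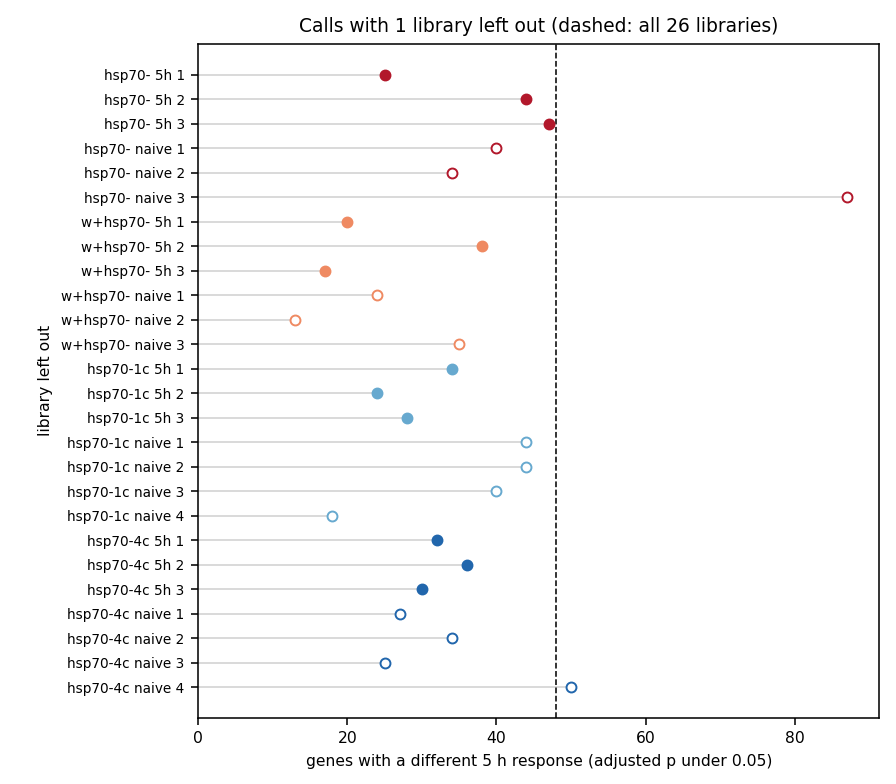
Number of genes whose 5 h response differed between the pairs (horizontal axis, adjusted p under 0.05) when the library named on the vertical axis was left out, filled points for 5 h and open points for naive libraries, coloured by strain. The dashed line marks the 48 genes of all 26 libraries, and the counts run from 13 to 87.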

How the data were processed

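RNA was extracted from male heads, and directional polyA libraries were sequenced as 75-bp single reads on a NextSeq 500, per the labels' protocols. The submitters' processing notes list Trimmomatic, STAR 2.5.0a, featureCounts 1.5.0-p1 and the build dm6; the strand setting and annotation release are not given in the sources used here. The authors deposited raw counts per FlyBase gene for each library, with status lines for unassigned reads, which were left out. Of all reads, 58.2 to 68.7% lay outside genes. Gene symbols and positions came from Ensembl BDGP6 release 115, which matched 17253 of 17559 identifiers. The 306 without a symbol could not enter a gene list, so the counts of a list can miss members.

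Counts of the 26 naive and 5 h libraries were fitted in 1 model with edgeR 4.0.16 (TMM scaling, filterByExpr on the 8 groups, robust quasi-likelihood F test, Benjamini-Hochberg over 10729 genes), after the scripts were tested on simulated data. CPM values use TMM-scaled library sizes, fold changes are log2, and SE is the log2 value over the square root of F. The 4 naive hsp70-4c libraries carry 5h-control titles and were grouped by their labelled time point. Named were up to 12 genes that passed in each direction with at least 5 CPM in a group, 3 members of each of 39 lists with the smallest p, the inducible Hsp70 genes, up to 5 genes per direction and strain, and the other genes that passed. Lists are described by counts and medians. Members of a list were read in the same libraries, so a count of signs is not a count of independent results. The members and lists were chosen with earlier results of these data known. Alternatives were a DESeq2 1.42.0 Wald test, a block on the replicate number, a fit of all 32 libraries, DESeq2 size factors, keeping genes of low count, and leaving out each library. P-values set a difference against the spread between libraries of a group. The spread between strains is not part of them, so they speak for these 4 strains only. Depth limits genes under about 5 CPM most. Promoter sequence was not used here.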

Additional observations from a re-analysis of the deposited data

Results flagged for a closer look

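The 5 h response differed between the strain pairs for 48 genes by the test of the difference itself. Within the hsp70-4c and hsp70-1c pair it differed for daw (-1.29, log2 change of hsp70-4c minus that of hsp70-1c) and for CG14400 (1.41).

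In groups of 4 libraries, the highest or lowest library was set apart where its gap to the nearest other, as a share of the group's range, passed Dixon's 95% critical value. This was so for 5 of the 98 gene and group combinations examined, and that critical value is set to be passed by chance in about 1 in 20 groups. BomS1 was at 445 CPM in naive hsp70-1c replicate 2, against 569 to 584 CPM in the other naive hsp70-1c libraries, and SLC5A11 was at 26.5 CPM in the same library, against 32.2 to 33.2 CPM. Men-b was at 176 CPM in naive hsp70-4c replicate 2, against 209 to 213 CPM. Odc1 was at 49.3 CPM in naive hsp70-1c replicate 1, against 41.7 to 43.0 CPM. Hsp70Bc was at 0.308 CPM in naive hsp70-1c replicate 3 and at 0 in the other 3.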

How the results depend on the processing

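The direction of all 48 differences between the pairs held in every alternative run. Their number was 43 with DESeq2 size factors, 33 without a filter on low counts, 78 with all 32 libraries in 1 fit (48 of the 48 among them) and 181 with the DESeq2 Wald test (36 of the 48 among them). The rest of the 48, rut, CNMa and Nep7 among them, got no adjusted p from the DESeq2 Wald test. Leaving out single libraries gave 13 to 87, and 15 genes passed in all 5 other settings, where a gene without an adjusted p was counted as not passing. The DESeq2 Wald test gave 127 genes for the change of hsp70-, 158 for that of w+hsp70- and 40 for hsp70-4c against hsp70-1c. Leaving out single libraries gave 8 to 129 genes for hsp70-, 34 to 124 for w+hsp70-, 240 to 473 for hsp70-1c, 359 to 906 for hsp70-4c, 220 to 506 for the mean of hsp70- and w+hsp70-, 1138 to 1614 for the hsp70-1c and hsp70-4c mean, 0 to 1 for w+hsp70- against hsp70- and 0 to 16 for hsp70-4c against hsp70-1c. Moves past 1.5 times came for the 5 h change in hsp70- without its naive replicates 1 (28), 2 (8) and 3 (129) and 5 h replicate 1 (14). They came for the 5 h change in w+hsp70- without its naive replicates 1 (38), 2 (52) and 3 (64) and 5 h replicates 1 (34) and 3 (64). For the 5 h change in hsp70-1c they came without 5 h replicates 2 (245) and 3 (240) and naive replicate 4 (269), and for the 5 h change in hsp70-4c without 5 h replicates 2 (418) and 3 (359) and naive replicates 1 (457) and 3 (480). For the mean 5 h change of hsp70- and w+hsp70- they came without naive replicate 1 of w+hsp70- (220) or of hsp70- (238). The cause of these moves was not tested. Same-numbered libraries of a strain did not deviate together (12 pairs, correlations -0.18 to 0.294, 3 of them over 0.1), so the numbers are not taken as a pairing. With them as a replicate block, 30 genes differed between the pairs (19 of the 48 among them), 260 changed in hsp70-1c and 18 differed between hsp70-4c and hsp70-1c.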
